A study of Mus musculus with 8 samples.

Results

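The 34 genes described here encode enzymes of glycolysis, of the pentose phosphate pathway and of glycogen metabolism, together with subunits and a kinase of the pyruvate dehydrogenase step. They were chosen by name from these pathways, with earlier results of these data known. Their probes were found through the RefSeq accession that the array design gives for each spot. All 34 were on the array, with 51 probes among the 55681 probes of the design. For all 34 genes at least 1 probe passed the filter on dim signals, so 34 of the 14106 genes tested are members. RNA came from granulocyte progenitors (GPs) of mouse bone marrow, freshly isolated and untreated, and was hybridised to 8 single-colour (Cy3) Agilent arrays. Wild-type Flt3+ GPs, wild-type Flt3- GPs, Flt3+ GPs labelled Irf8KO and Flt3- GPs labelled Irf8KO had 2 arrays each, 1 from each of 2 experiments. Flt3 is a cytokine receptor of early progenitors by which the cells were divided, and Irf8 is a transcription factor of the myeloid lineages. Strain, age, the number of mice behind a sample, the other sorting markers and the part of Irf8 that was removed are not given in the sources used here. P-values therefore reflect only how far these samples spread, which may be technical variation.

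Glycolysis splits glucose to pyruvate in a chain of cytosolic reactions, and lactate dehydrogenase turns pyruvate into lactate while restoring the NAD+ that the chain uses. The pentose phosphate pathway branches off after the hexokinase step. Its oxidative arm makes NADPH, which phagocytes use for the oxidative burst and for keeping glutathione reduced, and its non-oxidative arm makes ribose phosphate and returns sugars to glycolysis. Granulocytes are known for living largely on glycolysis and for storing glycogen.

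Each value is the log2 of a signal over its array's 75th percentile, and each pair of values gives experiment 1 and then experiment 2. Differences are log2 differences from limma fitted on all 8 arrays, with the standard error (SE) and the Benjamini-Hochberg adjusted p over all 14106 genes, and calls were made at an adjusted p under 0.05. Between 54.9 and 60.1% of spots were well above background on each array and 0 were saturated. All 8 arrays lay on 1 slide, with wild type in row 1, Irf8KO in row 2, Flt3+ in columns 1 and 2 and Flt3- in columns 3 and 4, so position and group cannot be told apart. Flt3 RNA read 6.21 and 6.21 in wild-type Flt3+ GPs against 1.69 and 1.66 in Flt3- GPs, and 6.29 and 6.30 against 2.71 and 2.68 on the arrays labelled Irf8KO. The single probe of Irf8 read higher under the Irf8KO label, with differences of 0.84 (SE 0.051, adjusted p = 0.000226, limma) in Flt3+ and 0.72 (SE 0.051, adjusted p = 0.000399) in Flt3- GPs. Its place relative to the deletion is not known here. The probe is therefore no check of the labels, on which every genotype direction rests. The 11 granulocyte progenitor markers (Mpo, Elane, Cebpe and others) were well above background in all 4 groups. Their summed linear signal, in units of the 75th percentile, was 878 to 981 in wild-type Flt3+, 2400 to 2540 in wild-type Flt3-, 1420 on both Irf8KO Flt3+ arrays and 2780 to 3030 in Irf8KO Flt3- GPs.

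Flt3+ GPs carried less RNA than Flt3- GPs for most of these enzymes. In wild type 29 of 34 members were lower and 3 were higher, with a median difference of -0.61. Across all genes tested 61.9% were called, 39.2% lower and 22.6% higher, with a median of -0.115. The members' shares were 85.3% lower and 8.82% higher. Since members were chosen with earlier results of these data known, such shares describe them and are no test of the set. On the arrays labelled Irf8KO 24 members were lower and 2 were higher, with a median of -0.46, against 45.8% of all genes called (23.6% lower, 22.1% higher, median -0.03). These comparisons share no arrays, but they share the fit and its estimate of each gene's spread. In both genotypes the Flt3+ arrays also lay in slide columns 1 and 2 and the Flt3- arrays in 3 and 4. Of the members lower in Flt3+ GPs, 23 were so in both genotypes, which is 79.3% of the wild-type list and 95.8% of the Irf8KO list. The same overlap was not counted over all genes, so it has no background here. Aldoc and Pfkm were higher in Flt3+ GPs in both genotypes. In wild type 8 members differed at least 2-fold downward, namely Pgd, Hk3, Gys1, Pygl, Pfkp, Rpia, Rpe and Pfkfb3, and 1 upward, Aldoc. Calls of at least 2-fold were not counted over all genes. Only Pdk1 was called in none of the 5 comparisons. In RNA of whole populations, fewer cells of a type and less RNA per cell cannot be told apart.

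**Figure D1:**
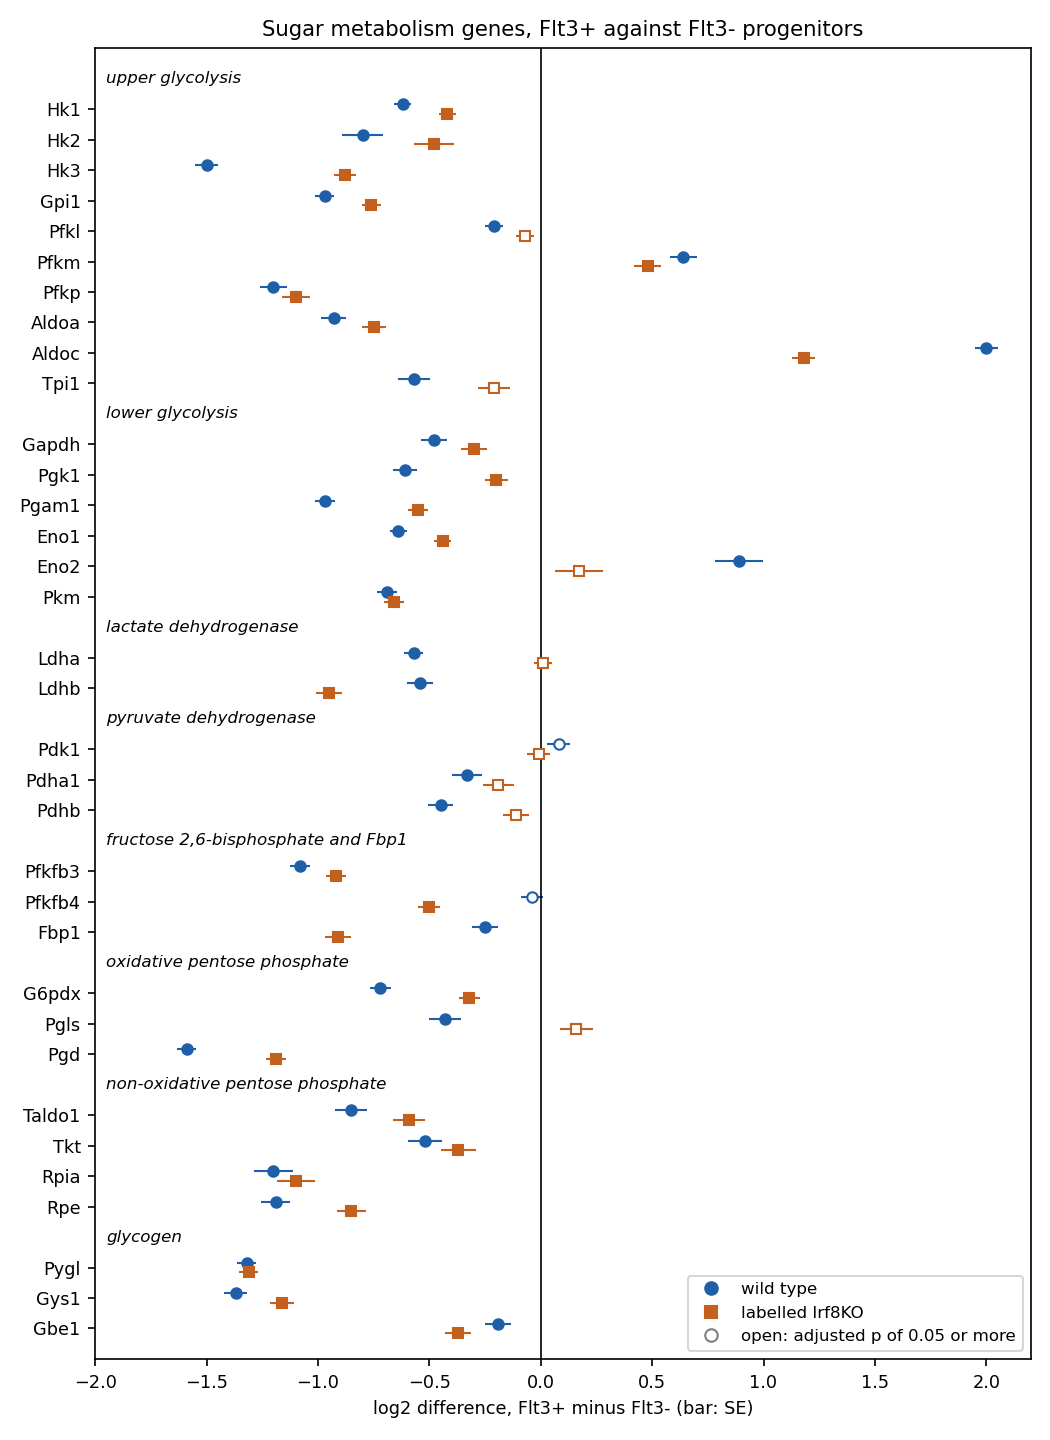
Log2 difference between Flt3+ and Flt3- GPs (x axis, with SE) for each of the 34 genes (y axis, grouped by role), in wild type (circles) and on arrays labelled Irf8KO (squares), from 2 arrays per group. Filled symbols passed an adjusted p of 0.05, and most lie left of 0, with Aldoc (2.00 and 1.18) and Pfkm (0.64 and 0.48) to the right in both genotypes.

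Quantile normalization moved the median of all genes between the wild-type populations from -0.115 to -0.013 and their split from 22.6% higher and 39.2% lower to 29.8% and 29.2%. The members then had 22 lower and 4 higher, with a median of -0.31, and in Irf8KO again 22 lower and 4 higher, with a median of -0.35. Under it the wild-type calls of Tpi1 (-0.20, adjusted p = 0.0521), Pdhb (-0.15), Pgls (-0.17), Pdha1 (-0.13), Fbp1 (-0.09), Pfkl (-0.05) and Gbe1 (-0.03) were lost, as were the Irf8KO calls of Pgk1 (-0.08) and Tkt (-0.14), while Pdk1 was called higher in wild type (0.24). Among wild-type calls that held, Pgk1 moved from -0.61 to -0.24, Eno1 from -0.64 to -0.27 and G6pdx from -0.72 to -0.44. Leaving out 1 array ended the wild-type calls of Fbp1 (without the experiment 2 array of either wild-type group, adjusted p up to 0.0666) and Gbe1 (without any of 5 arrays, up to 0.121). It ended the Irf8KO calls of Tkt (without the experiment 1 array of Irf8KO Flt3+, 0.0616) and Pgk1 (without any of 4 arrays, up to 0.12).

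Marker sums moved with the populations too, but not all in the same direction in both genotypes. In wild type the mature neutrophil markers summed to 8.79 to 8.95 in Flt3+ against 16.8 to 17.3 in Flt3- GPs. In Irf8KO they summed to 38.7 to 39.5 against 34.3 to 34.4. The megakaryocyte markers summed to 14.1 to 14.9 against 8.55 to 8.99, and in Irf8KO to 4.57 to 4.85 against 5.71 to 5.73. Monocyte and macrophage sums were 82.9 to 86.2 against 77.6 to 77.9, and in Irf8KO 142 to 147 against 151 to 152. The 11 eosinophil, basophil and mast cell markers summed to 15.9 to 16.5 in wild-type Flt3+ and 150 on both wild-type Flt3- arrays, and to 7.68 to 8.03 against 74 to 74.1 in Irf8KO, with Ms4a2 not well above background in both Flt3+ groups and Fcer1a not in both Irf8KO groups. The 8 stem and multipotent progenitor markers ran the other way, with 305 to 311 against 138 to 142 in wild type and 269 to 281 against 98 to 98.7 in Irf8KO, where Mecom was not well above background in Flt3- GPs. The 8 measured lymphoid markers summed to 167 to 175 against 112 to 113 in wild type. In Irf8KO they summed to 275 to 296 against 105 on the lower Flt3- array. Of the 8, 4 were higher and 1 lower in each genotype, from Nkg7 at -2.14 to Dntt at 8.04 in wild type. Nkg7, which ran the other way, was the brightest of them in wild-type Flt3- GPs (6.56 and 6.57). Cd3g and Pax5 were not well above background in any group, nor were Il7r and Rag1 in either Flt3- group. The 10 erythroid markers summed to 80.1 to 82.3 against 34.7 to 35 and to 20.4 against 10.4 to 10.9. They did not move together, since 5 were higher and 3 lower in wild type and 4 and 2 in Irf8KO, with Car2 at 1.29 and Gata1 at -3.95 in wild type, and with Hbb-b2, Klf1 and Rhd not well above background in Irf8KO Flt3-. The 9 measured dendritic cell markers, Flt3 among them, summed to 256 to 289 against 186 to 201 and to 298 to 303 against 231 to 248. Without Flt3, the gene of the sort, the other 8 summed to 181 to 214 against 183 to 198 and to 219 to 224 against 224 to 241. Siglech was by far the brightest of these 8, at 7.45 to 7.91 over the 8 arrays, and made up most of each sum. Of the 9, 7 were higher in wild type and 6 in Irf8KO and 0 lower, with Xcr1 not well above background in any group and Clec9a above it in wild-type Flt3+ only. The part of these cell types in the sugar metabolism differences was not tested.

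**Figure D2:**
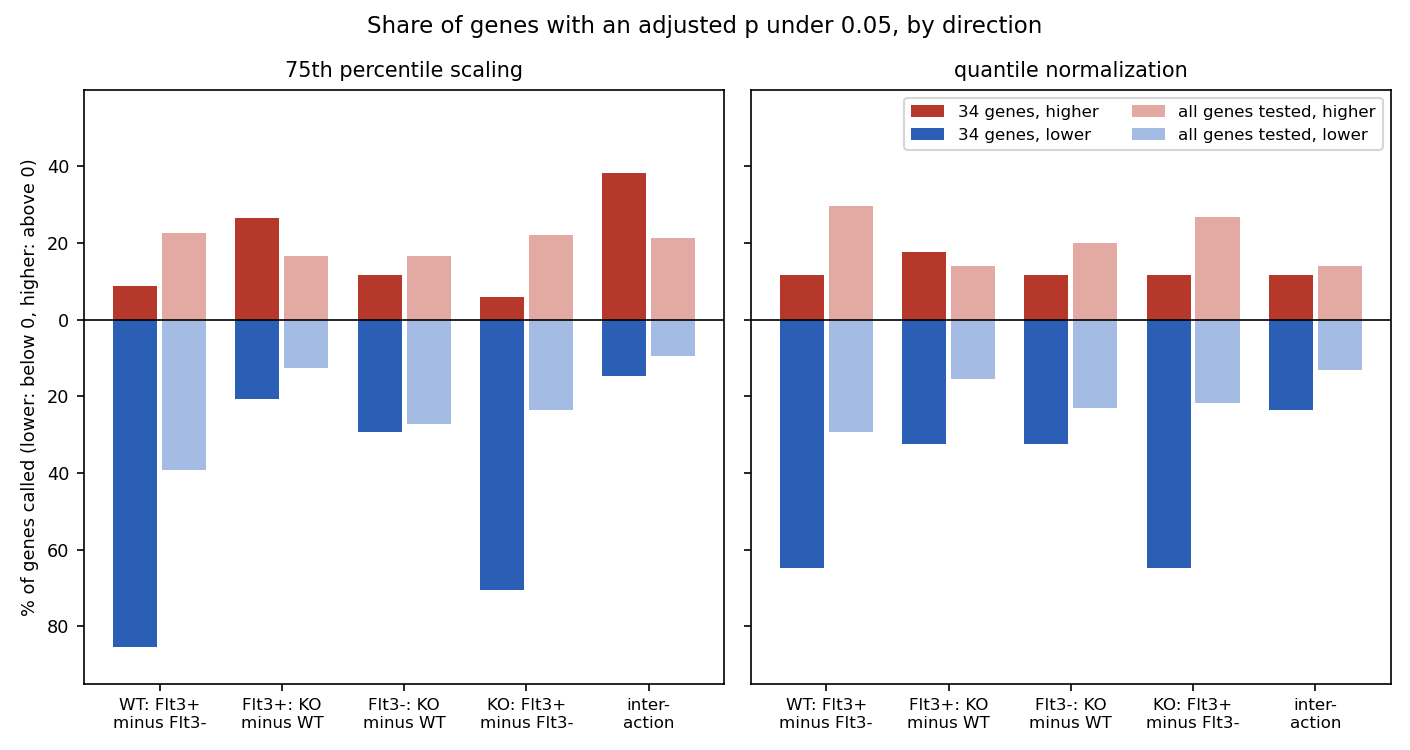
Share of genes called at an adjusted p under 0.05 (y axis, %, higher above 0 and lower below it) in each of the 5 comparisons (x axis), for the 34 members (dark bars) and all 14106 genes tested (light bars), under 75th percentile scaling (left) and quantile normalization (right). In both panels the members' lower share between the populations of a genotype (64.7 to 85.3%) exceeds that of all genes (21.8 to 39.2%). In Flt3+ GPs the genotype shares were 26.5% higher and 20.6% lower, against 16.5% and 12.5% of all genes (left). At right they were 17.6% and 32.4%, against 14.1% and 15.4%. In Flt3- GPs they were 11.8% and 29.4%, against 16.5% and 27.2% (left). At right they were 11.8% and 32.4%, against 19.9% and 22.9%.

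Between genotypes the members differed in both directions. In Flt3+ GPs labelled Irf8KO 9 members were higher (26.5%) and 7 lower (20.6%) than in wild type. Of all genes 29% were called in that comparison (16.5% higher, 12.5% lower). The members called higher included Hk3, Pygl and all 3 enzymes of the oxidative pentose phosphate arm, and those called lower included Aldoc, Ldhb and Hk1. In Flt3- GPs 4 members were higher, Fbp1, Hk3, Pygl and Pfkfb4, and 10 were lower, among them Hk1, Ldha, Pgk1 and Pgam1. There 43.6% of all genes were called (16.5% higher, 27.2% lower). Under this scaling the members' shares of 11.8% higher and 29.4% lower lay near the background. The lower share depended on the processing, at 44.1% against 25.7% of all genes after normexp background correction and 32.4% against 22.9% under quantile normalization. The higher shares were then 14.7% against 16.2% and 11.8% against 19.9%. Hk3 and Pygl were higher in both populations (22.2% of the Flt3+ list and 50% of the Flt3- list). Hk1, Ldhb and Pfkl were lower in both (42.9% and 30%), and Pfkfb4 was called in opposite directions. These overlaps were not counted over all genes either.

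Many of the genotype calls in Flt3+ GPs lay near the threshold. Aldoc, Hk1, Hk3, Ldhb and Pygl kept theirs with any 1 array left out, and the other 11 lost theirs without at least 1 array while their differences kept their sign. For Aldoa, 7 of the 8 omissions ended the call, with values of 0.16 to 0.24. The count fell from 16 to 6 without the Irf8KO Flt3+ array of experiment 2, to 7 without that of experiment 1 and to 10 without the wild-type Flt3+ array of experiment 2. Calls over all genes fell too, from 4087 to 2002, 2184 and 3476 in the same order. The members' count was 9 when only the 4 Flt3+ arrays were fitted (2664 of all 14106 genes). It was also 9 without the filter on dim probes (2678 of 20279 genes). The direction of the members' calls depended on the scaling. They were 6 higher and 11 lower under quantile normalization and 7 and 7 with the percentile taken over spots. After normexp background correction they were 6 and 6. Of all genes 2322 were higher and 1765 lower under the main scaling. Under the alternatives they numbered 1990 and 2174, 2032 and 2005, and 2238 and 1638, in the same order. In Flt3- GPs the number of calls fell without the wild-type Flt3- array of experiment 2, among members and among all genes. Marker levels moved with genotype too. All 10 erythroid markers were lower in Irf8KO in both populations. Of the 11 eosinophil, basophil and mast cell markers 6 were lower and 1 higher in Flt3+ GPs, and 9 were lower and 0 higher in Flt3- GPs. All 10 mature neutrophil markers were higher in both populations, and of the 11 granulocyte progenitor markers 8 were higher and 1 lower in Flt3+, and 6 and 2 in Flt3- GPs. Of the 8 stem and multipotent progenitor markers 7 were lower and 1 higher in Flt3+, and 5 and 0 in Flt3- GPs. The 9 monocyte and macrophage markers did not move together, with 5 higher and 2 lower in Flt3+ and 5 higher and 4 lower in Flt3- GPs, F13a1 at 1.52 and 1.53 and Ly86 at -8.46 and -8.08. They summed to 82.9 to 86.2 in wild type and 142 to 147 in Irf8KO in Flt3+ GPs, and to 77.6 to 77.9 and 151 to 152 in Flt3- GPs, with Aif1 not well above background in Irf8KO. The 8 megakaryocyte markers summed to 14.1 to 14.9 and 4.57 to 4.85, and to 8.55 to 8.99 and 5.71 to 5.73, with Ppbp not well above background in Irf8KO, and 7 were lower in Flt3+ and 4 lower and 1 higher in Flt3- GPs. Of the 9 dendritic cell markers 1 was higher and 4 lower in Flt3+, and 3 and 1 in Flt3- GPs, and of the 8 lymphoid markers 4 were higher and 1 lower, and 2 and 1. The part of these cells in the genotype differences was not tested.

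The difference between these genotype differences was tested as an interaction, Flt3+ minus Flt3-. It was called for 18 members, 13 above 0 and 5 below, against 30.9% of all genes (21.4% above, 9.45% below). Ldha, Hk3, Pgls, Pgam1, Pgk1, G6pdx and Pgd were among those above 0, and Aldoc, Eno2, Fbp1, Pfkfb4 and Ldhb were those below. Under quantile normalization 4 members were above 0 and 8 below, against 14% and 13.2% of all genes, and 9 of the 18 calls were lost, so the direction of the list as a whole depended on the scaling. The number of calls fell without either wild-type Flt3- array or either Irf8KO Flt3+ array, among members and among all genes. The comparisons of populations and of genotypes share arrays in pairs, so their values are given side by side and are not independent.

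**Figure D3:**
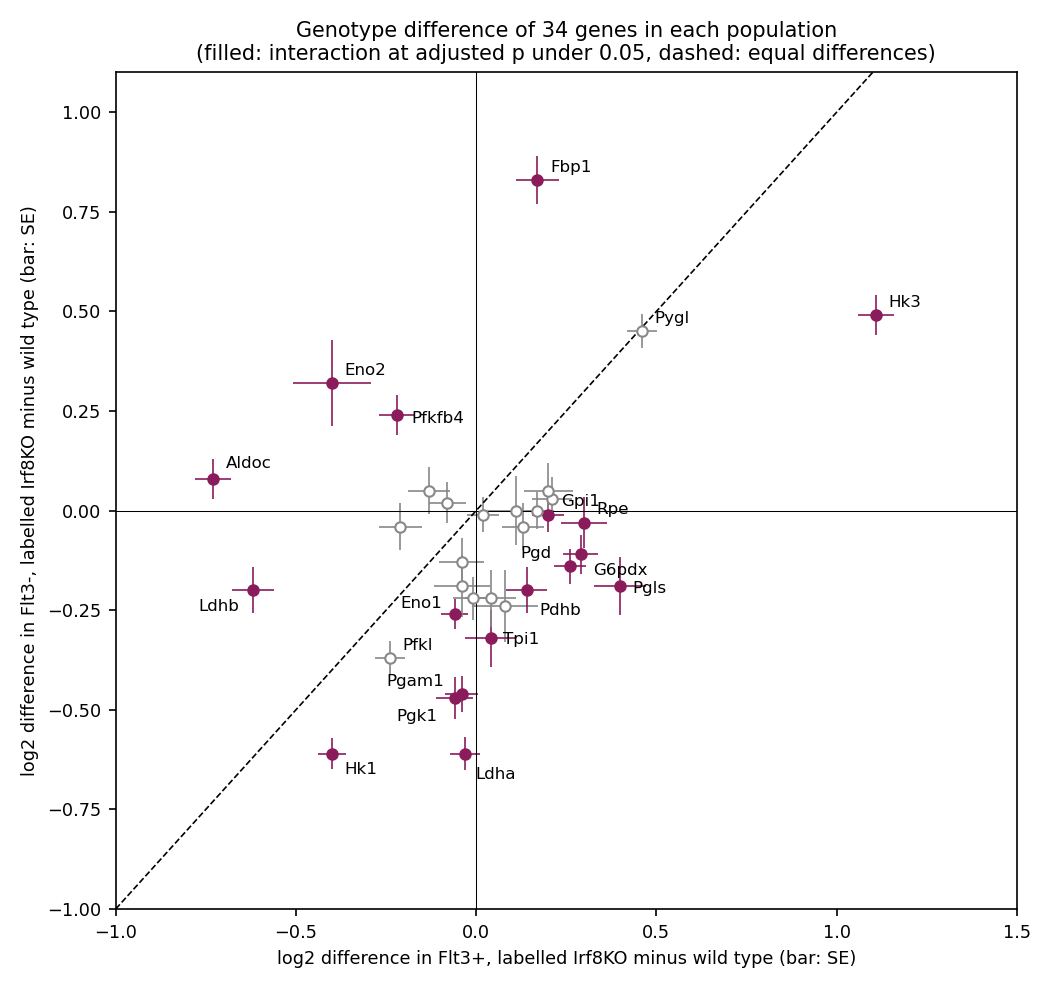
Log2 difference between arrays labelled Irf8KO and wild type in Flt3+ GPs (x axis) against that in Flt3- GPs (y axis), with SE, for the 34 genes. Filled points had an interaction called at an adjusted p under 0.05, and Fbp1 (0.17 and 0.83), Ldha (-0.03 and -0.61) and Aldoc (-0.73 and 0.08) lie far from the dashed line of equal differences, while Pygl (0.46 and 0.45) lies on it.

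Hexokinases trap glucose in the cell by phosphorylating it, and 3 of them were measured. Hk3, the hexokinase of myeloid cells, read 3.58 and 3.57 in Flt3+ and 5.03 and 5.12 in Flt3- GPs of wild type. Under the Irf8KO label it read 4.67 and 4.70 in Flt3+ and 5.52 and 5.60 in Flt3- GPs. The 4 groups did not overlap, wild-type Flt3+ being lowest and Irf8KO Flt3- highest. Hk3 was 2.83-fold lower in Flt3+ than in Flt3- GPs of wild type (-1.50, SE 0.050, adjusted p = 6.25e-06, limma) and 1.84-fold lower in Irf8KO (-0.88, SE 0.050, adjusted p = 5.57e-05). Between genotypes it was 2.16-fold higher in Flt3+ (1.11, adjusted p = 8.45e-05) and 1.40-fold higher in Flt3- GPs (0.49, adjusted p = 0.00113), with an interaction of 0.62 (SE 0.071, adjusted p = 0.00355). The summed signal of the 10 mature neutrophil markers moved with it between genotypes, from 8.79 to 8.95 up to 38.7 to 39.5 in Flt3+ and from 16.8 to 17.3 up to 34.3 to 34.4 in Flt3- GPs, where Mmp9 was not well above background in either wild-type group and Mmp8 not in wild-type Flt3-. The part of those cells in the rise of Hk3 was not tested.

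Hk1, the hexokinase found in most cells, went the other way between genotypes. It read 4.78 and 4.79 in wild-type Flt3+, 5.40 and 5.41 in wild-type Flt3-, 4.40 and 4.36 in Irf8KO Flt3+ and 4.81 and 4.78 in Irf8KO Flt3- GPs. The Irf8KO Flt3- arrays thus stood at the level of wild-type Flt3+. Hk1 was 1.32-fold lower in Irf8KO in Flt3+ (-0.40, SE 0.038, adjusted p = 0.00118) and 1.52-fold lower in Flt3- GPs (-0.61, SE 0.038, adjusted p = 0.000292). Another probe of Hk1 gave -0.44 and -0.67. The interaction of Hk1, 0.20, turned to -0.05 under quantile normalization and lost its call without any 1 of the 8 arrays (adjusted p up to 0.126). Hk2, the inducible hexokinase, read 2.03 and 2.22 in wild-type Flt3+ against 2.92 and 2.93 in Flt3- GPs, and 2.13 and 2.28 against 2.75 and 2.60 in Irf8KO. It was lower in Flt3+ GPs in wild type (-0.80, SE 0.091) and in Irf8KO (-0.48, SE 0.091), and its genotype differences of 0.08 and -0.24 were not called.

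Gpi1, which isomerises glucose phosphate to fructose phosphate, read 7.30 and 7.23 in wild-type Flt3+ and 8.26 and 8.22 in Flt3- GPs. In Irf8KO it read 7.47 and 7.46 against 8.23 and 8.23. It was 1.97-fold lower in Flt3+ GPs of wild type (-0.97, SE 0.044, adjusted p = 1.81e-05) and 1.70-fold lower in Irf8KO (-0.76, SE 0.044). Its 3 probes gave -0.97 to -1.09 in wild type.

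Phosphofructokinase commits sugar to glycolysis, and its muscle (Pfkm), platelet (Pfkp) and liver (Pfkl) isoforms differed in direction. Pfkp read 1.15 and 1.28 in wild-type Flt3+ and 2.46 and 2.36 in the wild-type Flt3- group, and 1.15 and 1.20 against 2.26 and 2.31 in Irf8KO. Pfkm read 2.74 and 2.82 against 2.11 and 2.16, and 2.56 and 2.59 against 2.03 and 2.16. Neither isoform had overlapping populations, with Pfkp high in Flt3- and Pfkm high in Flt3+ GPs. Pfkp was lower in Flt3+ GPs by 2.29-fold in wild type (-1.20, SE 0.062, adjusted p = 3.04e-05) and 2.15-fold in Irf8KO (-1.10, SE 0.062). Its other, dimmer probe gave a smaller difference of -0.47 in wild type, and -0.31 in Irf8KO that was not called (adjusted p = 0.0663 over all probes). The mean of both probes gave -0.83 and -0.71. Pfkm was higher by 1.56-fold (0.64, SE 0.060, adjusted p = 0.000277) and 1.39-fold (0.48, SE 0.060). Pfkl read 2.13 and 2.11 in wild-type Flt3+, 2.36 and 2.30 in wild-type Flt3-, and 1.88 and 1.89 in Irf8KO Flt3+ and 1.94 and 1.97 in Irf8KO Flt3- GPs. All 4 Irf8KO arrays were below all 4 wild-type arrays. Pfkl was lower in Irf8KO in Flt3+ (-0.24, SE 0.042, adjusted p = 0.0108, lost without either Irf8KO Flt3+ array, up to 0.0627) and in Flt3- GPs (-0.37, SE 0.042, adjusted p = 0.00144).

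Aldolase splits the phosphorylated hexose into trioses, and its isoforms ran in opposite directions. Aldoa, the isoform of most tissues, read 6.66 and 6.55 in wild-type Flt3+ against 7.57 and 7.50 in Flt3- GPs, and 6.84 and 6.80 against 7.56 and 7.57 in Irf8KO. Aldoc, known from brain, read 1.74 and 1.84 in wild-type Flt3+ and -0.22 and -0.19 in their Flt3- counterparts. In Irf8KO it read 1.08 and 1.03 in Flt3+ and -0.10 and -0.15 in Flt3- GPs. The Flt3- arrays of both genotypes were the low ones, and the Irf8KO Flt3+ arrays stood between them and wild-type Flt3+. Aldoc was 3.99-fold higher in wild-type Flt3+ GPs (2.00, SE 0.050, adjusted p = 2.69e-06), and 2.27-fold higher in Irf8KO (1.18, SE 0.050, adjusted p = 1.85e-05). Aldoc was 1.66-fold lower in Irf8KO in Flt3+ GPs (-0.73, adjusted p = 0.000355), against 0.08 in Flt3- GPs (adjusted p = 0.254), with an interaction of -0.81 (SE 0.071, adjusted p = 0.00196). Aldoa was 1.90-fold lower in wild-type Flt3+ GPs (-0.93, SE 0.055, adjusted p = 4.8e-05) and 1.68-fold lower in Irf8KO (-0.75). Tpi1, which interconverts the trioses, read 5.72 and 5.78 in wild-type Flt3+, 6.27 and 6.38 in wild-type Flt3-, 5.73 and 5.86 in Irf8KO Flt3+ and 5.96 and 6.05 in Irf8KO Flt3- GPs. It was lower in Irf8KO in Flt3- GPs (-0.32, SE 0.072, adjusted p = 0.0157), a call lost under quantile normalization (-0.19, adjusted p = 0.0768) and without either the wild-type Flt3- array of experiment 2 or the Irf8KO Flt3- array of experiment 1 (up to 0.0847). Between the Irf8KO populations Tpi1 differed by -0.21 (adjusted p = 0.054), which was called with the experiment as a block (adjusted p = 0.011).

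The later part of the pathway, from glyceraldehyde phosphate to pyruvate, yields its ATP, and 5 of its 6 measured genes were lower in wild-type Flt3+ than in Flt3- GPs. Gapdh, the dehydrogenase often taken as a control gene, read 8.53 and 8.40 against 9.0 and 8.90 in wild type and 8.59 and 8.61 against 8.91 and 8.90 in Irf8KO. The populations did not overlap. Gapdh was lower in Flt3+ GPs in wild type (-0.48, SE 0.059, adjusted p = 0.000854; -0.28 under quantile normalization) and in Irf8KO (-0.30, SE 0.059, adjusted p = 0.00783; -0.19). Its 7 probes gave -0.46 to -0.81 in wild type, and all were called. Processed pseudogenes of Gapdh and of several other glycolytic genes could share hybridisation, so probe values of these genes carry that uncertainty. Pkm, pyruvate kinase, read 5.61 and 5.61 against 6.32 and 6.28 in wild type and 5.65 and 5.60 against 6.26 and 6.32 in Irf8KO. It was 1.61-fold and 1.58-fold lower in Flt3+ GPs (-0.69 and -0.66, SE 0.045), with genotype differences of 0.02 and -0.01.

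Pgk1 (phosphoglycerate kinase), Pgam1 (phosphoglycerate mutase) and Eno1 (enolase) shared a pattern in which the wild-type Flt3- arrays stood highest. Pgam1 read 6.27 and 6.24 in wild-type Flt3+, 7.20 and 7.24 in wild-type Flt3-, 6.19 and 6.24 in Irf8KO Flt3+ and 6.73 and 6.79 in Irf8KO Flt3- GPs. Pgk1 read 6.11 and 6.14, 6.74 and 6.73, 6.03 and 6.11, and 6.22 and 6.32 in the same order. Eno1 read 6.31 and 6.28, 6.94 and 6.92, 6.24 and 6.23, and 6.66 and 6.68. For all 3 genes the Flt3+ groups of both genotypes overlapped or adjoined, and the Irf8KO Flt3- arrays lay between them and wild-type Flt3-. In Flt3- GPs the difference between Irf8KO and wild type was -0.46 for Pgam1 (SE 0.045, adjusted p = 0.001), -0.47 for Pgk1 (SE 0.052, adjusted p = 0.00149) and -0.26 for Eno1 (SE 0.038, adjusted p = 0.00329). In Flt3+ GPs the same differences were -0.04, -0.06 and -0.06 and were not called, though quantile normalization put them at -0.18, -0.19 and -0.20 and called all 3. The interaction was 0.42 for Pgam1 (SE 0.064, adjusted p = 0.00755; 0.28 under quantile normalization) and 0.41 for Pgk1 (SE 0.074, adjusted p = 0.0118; 0.16, adjusted p = 0.135). For Eno1 it was 0.20 and lost its call under quantile normalization (0.02) and without any 1 of the 8 arrays (adjusted p up to 0.133).

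Eno2, the enolase known from neurons, was dim, at -2.97 and -3.06 in wild-type Flt3+ and -3.76 and -4.05 in the wild-type Flt3- group, and -3.37 and -3.45 against -3.65 and -3.52 in Irf8KO. It was 1.86-fold higher in wild-type Flt3+ GPs (0.89, SE 0.11, adjusted p = 0.000802). After normexp background correction that difference was 0.21 (adjusted p = 0.0787), and its genotype difference in Flt3+ GPs turned from -0.40 to 0.01, so its values depend on how background is removed.

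Ldha, the lactate dehydrogenase subunit that favours lactate, was high in 1 group. It read 8.07 and 8.06 in the wild-type Flt3- group. Elsewhere it read 7.50 and 7.48 in wild-type Flt3+, 7.44 and 7.49 in Irf8KO Flt3+ and 7.48 and 7.43 in Irf8KO Flt3- GPs. The wild-type Flt3- arrays were thus above the other 6, and those 6 overlapped. Ldha was 1.53-fold lower in Irf8KO in Flt3- GPs (-0.61, SE 0.042, adjusted p = 0.000376), against -0.03 in Flt3+ GPs (adjusted p = 0.672). Between populations it was 1.49-fold lower in Flt3+ GPs of wild type (-0.57, SE 0.042, adjusted p = 0.000113), against 0.01 in Irf8KO (adjusted p = 0.851). Its interaction was 0.58 (SE 0.059, adjusted p = 0.00267) and 0.59 under quantile normalization, which also called the other contrasts, at -0.17 between genotypes in Flt3+ GPs and 0.22 between populations in Irf8KO. Its 3 probes gave interactions of 0.58 to 0.87.

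Ldhb, the subunit that favours pyruvate, did not follow Ldha. It read 2.81 and 2.93 in wild-type Flt3+, 3.41 and 3.40 in wild-type Flt3-, 2.21 and 2.30 in Irf8KO Flt3+ and 3.18 and 3.23 in Irf8KO Flt3- GPs. The 4 groups did not overlap, and Irf8KO Flt3+ was lowest. Ldhb was 1.53-fold lower in Irf8KO in Flt3+ GPs (-0.62, SE 0.058, adjusted p = 0.00116) and 1.93-fold lower in Flt3+ than in Flt3- GPs of Irf8KO (-0.95, SE 0.058, adjusted p = 7.08e-05). In Flt3- GPs its genotype difference of -0.20 lost its call without any 1 of the 4 Flt3- arrays (adjusted p up to 0.139) and under quantile normalization (-0.11). Its interaction was -0.42 (SE 0.082, adjusted p = 0.0156), lost without either wild-type Flt3- array or the Irf8KO Flt3+ array of experiment 1 (up to 0.0567).

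The sequences before the start sites of these genes were searched on both strands for ACGTG, the core shared by hypoxia response elements and by the E-box CACGTG. Each window ran from 250 bases before to 50 bases after the most upstream RefSeq start, in build GRCm38.p6, and all 34 members had a window. ACGTG was in 12 of the 34 windows (35.3%), namely those of Hk2, Hk3, Pfkm, Aldoc, Gapdh, Pgk1, Pgam1, Ldha, Pdhb, G6pdx, Pfkfb3 and Pygl, against 19.6% of 27025 windows of all genes. CACGTG, every match of which also holds ACGTG, was in 2 (Pfkm and Ldha), against 7.24%. Of the spaced motifs of IRF factors, GAAA followed after any 2 bases by GAAA was in 1 (Rpe), against 3.49%, and GGAA followed after any 2 bases by GAAA in 0, against 2.79%. A match describes the letters only. Printed here are the 160 bases before the start of the 4 members that had both a called interaction and ACGTG within that stretch, printed 5′ to 3′ on the gene's strand with ACGTG on either strand in capitals, so that CACGTG, its own reverse complement, holds an overlapping match on each strand.
Ldha: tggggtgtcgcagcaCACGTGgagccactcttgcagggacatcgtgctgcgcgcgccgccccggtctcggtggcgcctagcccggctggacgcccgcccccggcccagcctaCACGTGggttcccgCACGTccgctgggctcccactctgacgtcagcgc
Pgk1: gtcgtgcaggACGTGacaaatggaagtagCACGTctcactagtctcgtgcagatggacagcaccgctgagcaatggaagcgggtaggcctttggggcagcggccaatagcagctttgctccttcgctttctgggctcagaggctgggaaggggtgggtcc
Pgam1: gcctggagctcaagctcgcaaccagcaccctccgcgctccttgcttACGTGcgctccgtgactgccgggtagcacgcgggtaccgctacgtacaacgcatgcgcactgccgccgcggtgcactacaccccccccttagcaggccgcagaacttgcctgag
Hk3: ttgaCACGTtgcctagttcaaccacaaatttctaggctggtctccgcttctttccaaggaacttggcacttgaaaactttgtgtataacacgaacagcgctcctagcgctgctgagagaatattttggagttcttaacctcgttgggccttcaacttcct
The Ldha stretch is chr7:46845644-46845803 (plus strand) with 5 matches, Pgk1 chrX:106186940-106187099 (plus) with 2, Pgam1 chr19:41911711-41911870 (plus) with 1 and Hk3 chr13:55021386-55021545 (minus) with 1. Ldha, Pgk1 and Pgam1 were lower in Irf8KO in Flt3- GPs and Hk3 was higher, so genes with the motif were called in both directions.

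Pyruvate dehydrogenase passes pyruvate to the mitochondrial citrate cycle and is switched off by Pdk kinases. Pdhb, a subunit of its E1 component, read 4.69 and 4.71 in wild-type Flt3+, 5.16 and 5.14 in wild-type Flt3-, 4.84 and 4.83 in Irf8KO Flt3+ and 5.03 and 4.88 in Irf8KO Flt3- GPs. It was lower in wild-type Flt3+ GPs (-0.45, SE 0.057, adjusted p = 0.00102; -0.15 under quantile normalization, adjusted p = 0.0586). Pdha1, the other E1 subunit, read 2.95 and 3.07 against 3.33 and 3.36 in wild type, and 3.24 and 3.18 against 3.33 and 3.47 in Irf8KO. Its wild-type difference was -0.33 (SE 0.068, adjusted p = 0.00692; -0.13 under quantile normalization, adjusted p = 0.143). Pdk1, a kinase of the complex, read 2.19 to 2.35 over all 8 arrays, and its differences of -0.10 to 0.08 were not called.

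The bifunctional Pfkfb enzymes make and break the sugar bisphosphate that activates phosphofructokinase, and Fbp1 catalyses the reverse of the phosphofructokinase step. Fbp1 read 2.21 and 2.12 in wild-type Flt3+, 2.40 and 2.43 in wild-type Flt3-, 2.32 and 2.36 in Irf8KO Flt3+ and 3.31 and 3.18 in Irf8KO Flt3- GPs. The Irf8KO Flt3- arrays stood apart above the other 6. Fbp1 was 1.78-fold higher in Irf8KO in Flt3- GPs (0.83, SE 0.060, adjusted p = 0.000429), against 0.17 in Flt3+ GPs (adjusted p = 0.0798), with an interaction of -0.66 (SE 0.085, adjusted p = 0.0047). Pfkfb3 read 2.24 and 2.27 against 3.33 and 3.34 in wild type and 2.40 and 2.44 against 3.29 and 3.38 in Irf8KO. It was 2.11-fold and 1.89-fold lower in Flt3+ GPs (-1.08 and -0.92, SE 0.046), and its genotype difference in Flt3+ GPs, 0.17, was called at an adjusted p of 0.0433 that 6 of the 8 single-array omissions ended (up to 0.185). Pfkfb4 read 1.04 and 1.01 in wild-type Flt3+, 1.11 and 1.02 in wild-type Flt3-, 0.77 and 0.84 in Irf8KO Flt3+ and 1.30 and 1.31 in Irf8KO Flt3- GPs. The wild-type populations overlapped, whereas those of Irf8KO did not. Its population difference was -0.04 in wild type (adjusted p = 0.47) and -0.50 in Irf8KO (SE 0.049, adjusted p = 0.000492), with an interaction of -0.46 (SE 0.070, adjusted p = 0.00742). Another Pfkfb4 probe was not well above background and was not tested.

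**Figure D4:**
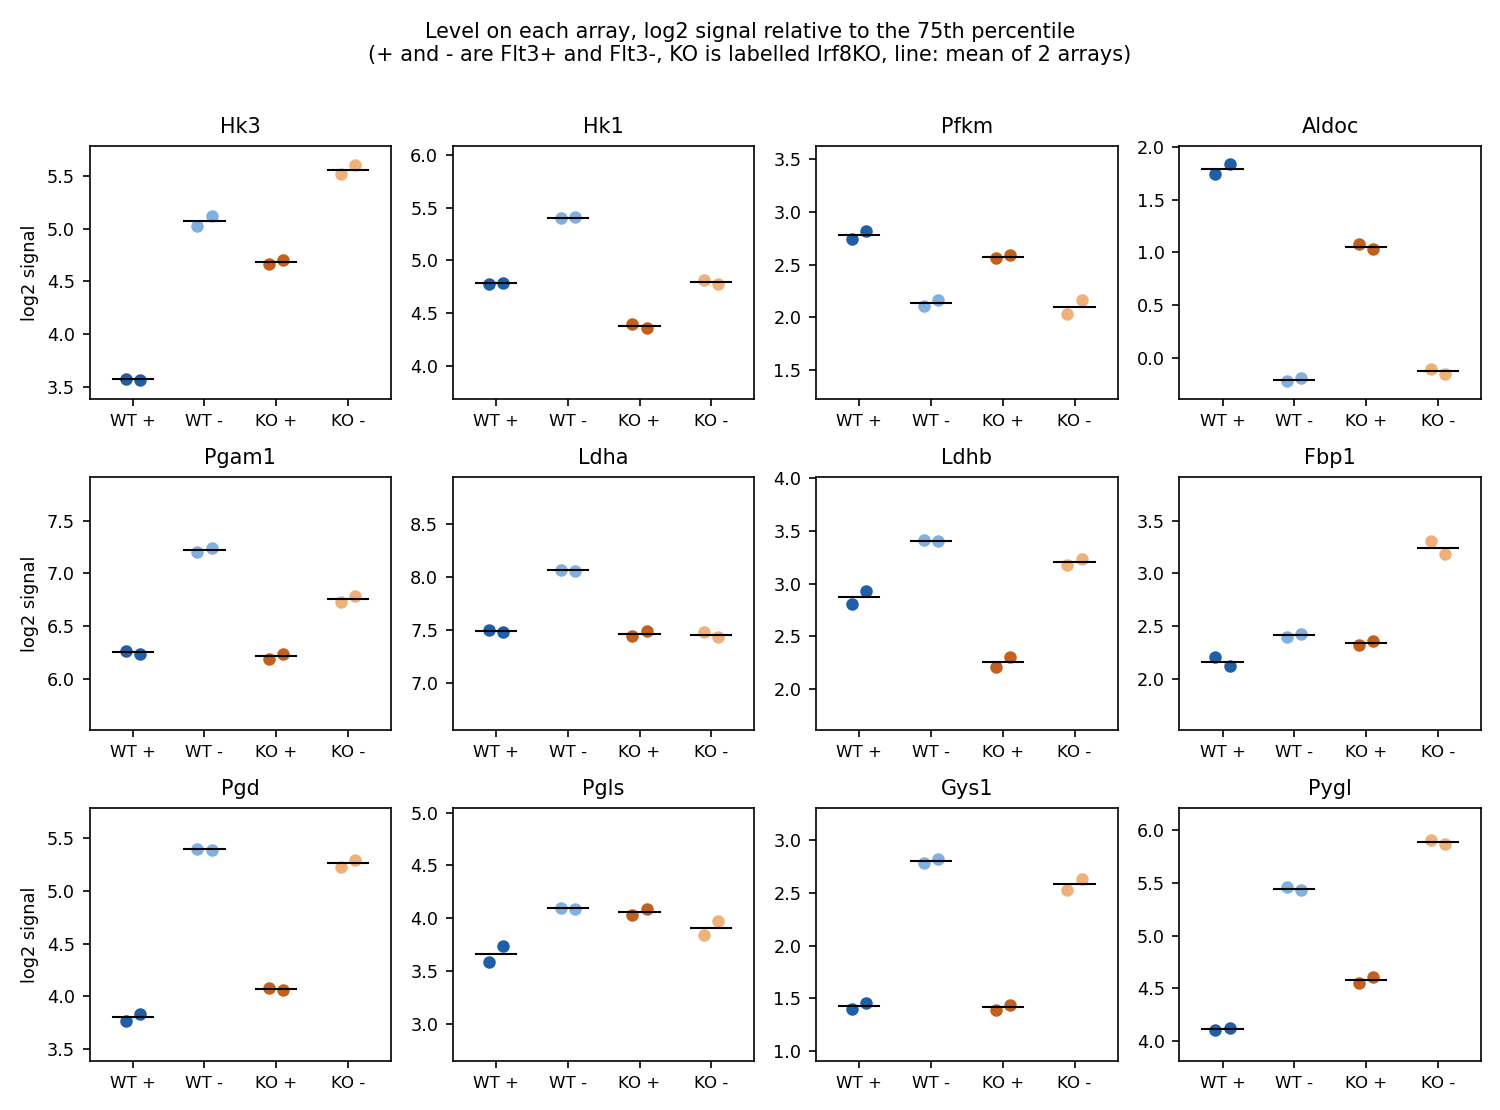
Log2 signal over the array's 75th percentile (y axis, each panel spanning the same range) for 12 genes on each of 8 arrays, in wild-type (WT) and Irf8KO-labelled (KO) Flt3+ and Flt3- GPs. Points are single arrays and lines are means of 2. Ldha is high on the wild-type Flt3- arrays alone (8.07 and 8.06), Fbp1 on the Irf8KO Flt3- arrays alone (3.31 and 3.18), and Pgls is low on the wild-type Flt3+ arrays (3.59 and 3.74).

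The oxidative arm of the pentose phosphate pathway makes NADPH in steps run by G6pdx (the entry dehydrogenase), Pgls (the lactonase) and Pgd (the decarboxylating dehydrogenase). Pgd read 3.77 and 3.83 in wild-type Flt3+ and 5.40 and 5.39 in the wild-type Flt3- group, and 4.08 and 4.06 against 5.23 and 5.29 in Irf8KO. G6pdx read 3.92 and 3.96 against 4.66 and 4.65, and 4.21 and 4.25 against 4.50 and 4.60. For both genes wild-type Flt3+ was lowest and wild-type Flt3- highest, with no overlap of groups. Pgls read 3.59 and 3.74 in wild-type Flt3+ and 4.10 and 4.09 in wild-type Flt3-, then 4.03 and 4.09 in Irf8KO Flt3+ and 3.84 and 3.97 in Irf8KO Flt3- GPs, so that in Irf8KO the Flt3+ arrays were the higher ones. Pgd was 3.02-fold lower in wild-type Flt3+ GPs (-1.59, SE 0.044, adjusted p = 3.55e-06), the lowest of the 34 members, and 2.29-fold lower in Irf8KO (-1.19, SE 0.044). G6pdx was 1.65-fold and 1.25-fold lower (-0.72 and -0.32, SE 0.049). Pgls was 1.35-fold lower in wild type (-0.43, SE 0.072, adjusted p = 0.00318; -0.17 under quantile normalization, adjusted p = 0.066) and differed by 0.16 in Irf8KO (adjusted p = 0.132), which quantile normalization called at 0.22.

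All 3 oxidative enzymes were higher in Irf8KO in Flt3+ GPs. The differences were 0.29 for G6pdx (SE 0.049, adjusted p = 0.00916), 0.40 for Pgls (SE 0.072, adjusted p = 0.0121) and 0.26 for Pgd (SE 0.044, adjusted p = 0.00915). They lost their calls without the Irf8KO Flt3+ array of experiment 2 (G6pdx, 0.0603; Pgls, 0.0727) or of experiment 1 (Pgd, 0.0563), and Pgd also after normexp (0.17). In Flt3- GPs the same differences were -0.11, -0.19 and -0.14 and were not called, though Pgls was with the experiment as a block (adjusted p = 0.0479). The interaction was 0.40 for G6pdx (SE 0.069, adjusted p = 0.0104), 0.59 for Pgls (SE 0.10, adjusted p = 0.0107) and 0.40 for Pgd (SE 0.063, adjusted p = 0.00801). Under quantile normalization it was 0.39 for Pgls, still called, and 0.19 and 0.18 for G6pdx and Pgd (adjusted p = 0.0814 and 0.0798).

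The 4 enzymes of the non-oxidative arm were lower in Flt3+ than in Flt3- GPs in both genotypes. Rpia (ribose phosphate isomerase) read 2.42 and 2.62 against 3.73 and 3.71 in wild type, and 2.54 and 2.71 against 3.75 and 3.69 in Irf8KO. Rpe (the epimerase) read 0.99 and 1.15 against 2.25 and 2.27, and 1.36 and 1.38 against 2.27 and 2.18. The populations were well apart for both genes, and the Flt3- arrays of the genotypes overlapped. Rpia was 2.30-fold lower in wild type (-1.20, SE 0.086, adjusted p = 1e-04) and 2.14-fold lower in Irf8KO (-1.10), and Rpe 2.28-fold (-1.19, SE 0.064, adjusted p = 3.43e-05) and 1.81-fold lower (-0.85). Taldo1 (transaldolase) read 6.79 and 6.75 against 7.61 and 7.61, and 6.75 and 6.86 against 7.48 and 7.31. Tkt (transketolase) read 6.77 and 6.65 against 7.25 and 7.20, and 6.63 and 6.71 against 7.13 and 6.95. Taldo1 differed by -0.85 (SE 0.072) in wild type and -0.59 in Irf8KO, and Tkt by -0.52 (SE 0.078) and -0.37. Between genotypes Rpe was called in Flt3+ GPs (0.30, SE 0.064, adjusted p = 0.0197), a call lost without either Irf8KO Flt3+ array or the wild-type Flt3+ array of experiment 1 (up to 0.0985), and Rpia, Taldo1 and Tkt were called in neither population. The Rpe interaction of 0.33 (adjusted p = 0.0394) was not called with the experiment as a block (adjusted p = 0.0562), nor without any of 7 arrays (up to 0.115).

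The 3 glycogen enzymes were lower in Flt3+ than in Flt3- GPs in both genotypes. Pygl, the liver-type phosphorylase that breaks glycogen down, read 4.11 and 4.13 in wild-type Flt3+, 5.46 and 5.43 in wild-type Flt3-, 4.55 and 4.61 in Irf8KO Flt3+ and 5.91 and 5.87 in Irf8KO Flt3- GPs. The groups did not overlap. Pygl was 2.50-fold lower in Flt3+ GPs of wild type (-1.32, SE 0.043, adjusted p = 5.79e-06) and 2.48-fold lower in Irf8KO (-1.31, adjusted p = 7.22e-06). It was 1.37-fold higher in Irf8KO in Flt3+ GPs (0.46, SE 0.043, adjusted p = 0.00113) and 1.36-fold higher in Flt3- GPs (0.45, adjusted p = 0.000926), with an interaction of 0.01 (SE 0.061, adjusted p = 0.935). The mature neutrophil marker sum rose with Pygl between genotypes as it did with Hk3, and its part was not tested. Gys1, the glycogen synthase of most tissues, read 1.40 and 1.46 against 2.78 and 2.82 in wild type and 1.39 and 1.44 against 2.53 and 2.63 in Irf8KO. It was 2.59-fold lower in Flt3+ GPs of wild type (-1.37, SE 0.053, adjusted p = 1.09e-05) and 2.24-fold lower in Irf8KO (-1.16). Its genotype difference was -0.01 in Flt3+ GPs and -0.22 in Flt3- GPs (adjusted p = 0.0201), the latter lost without any of 3 Flt3- arrays (up to 0.105), and its interaction of 0.21 was called with the experiment as a block (adjusted p = 0.0445). Gbe1, the branching enzyme, read 2.44 and 2.52 against 2.66 and 2.67 in wild type, and 2.28 and 2.41 against 2.73 and 2.71 in Irf8KO. It differed by -0.19 (SE 0.058; -0.03 under quantile normalization, not called) in wild type and by -0.37 (SE 0.058, adjusted p = 0.00333) in Irf8KO.

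Of 114 further genes of these pathways 96 were tested, from lists of transporters, other isoenzymes, pyruvate and NADPH enzymes, glycogen proteins and regulators. These lists too were chosen with earlier results of these data known. In wild type 57 were lower (59.4%, against 39.2% of all genes) and 17 higher (17.7%, against 22.6%) in Flt3+ GPs, with a median of -0.34. In Irf8KO 41 were lower (42.7%, against 23.6%) and 17 higher (17.7%, against 22.1%), with a median of -0.14. Between genotypes the shares lay near the background in Flt3+ GPs, with 14 higher (14.6%, against 16.5%) and 16 lower (16.7%, against 12.5%). In Flt3- GPs 19 were higher (19.8%, against 16.5%) and 32 lower (33.3%, against 27.2%). The interaction was above 0 for 22 (22.9%, against 21.4%) and below 0 for 10 (10.4%, against 9.45%), also near the background. Gsr, the glutathione reductase that uses NADPH, read 3.73 and 3.84 against 6.32 and 6.35 in wild type and 4.42 and 4.51 against 6.56 and 6.57 in Irf8KO. It had the lowest difference of these genes between wild-type populations (-2.55, SE 0.055, adjusted p = 1.59e-06), with -2.10 in Irf8KO. Slc16a7, a carrier of lactate and pyruvate, followed with -2.23 (SE 0.12) and -2.43, and was higher in Irf8KO in Flt3+ (0.70) and in Flt3- GPs (0.90). Among genes measured well above background in both populations, Mycn, a transcription factor of the Myc family (2.16, SE 0.095, adjusted p = 1.68e-05), and Txnip, a restraint on glucose uptake (1.36, SE 0.063), were highest in wild-type Flt3+ GPs. In Irf8KO these were the glucose transporter Slc2a3 (1.27, SE 0.086) and Mycn (1.22). Ldhd, the dehydrogenase of D-lactate, was not well above background in Flt3- GPs and was at least 6.84-fold higher in Flt3+ GPs of wild type and at least 1.93-fold higher in Irf8KO. Me1, the cytosolic malic enzyme, likewise had bounds of at least 2.02-fold and 1.01-fold, so these genes have no rank. In the bounds the dim group stands at the lowest signal counted as above background or at its own signal, whichever is higher.

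Between genotypes Idh1, an NADPH-making dehydrogenase, was highest in Flt3+ GPs (0.80, SE 0.060, adjusted p = 0.000491), with Slc16a7. Ldhd (-1.68, SE 0.20) and the hexose transporter Slc2a6 (-0.96, SE 0.059) were lowest. In Flt3- GPs Slc16a7 and the kinase Pdk2 (0.89, SE 0.065) were highest and Slc2a6 (-1.26, SE 0.059) and Slc2a3 (-0.79, SE 0.086) lowest among genes measured in both groups. Ldhc, the testis form of lactate dehydrogenase, was not well above background in Irf8KO and was at least 2.24-fold lower there. Pdk2 read -0.34 and -0.36 in wild-type Flt3+, -1.14 and -1.20 in wild-type Flt3-, and -0.20 to -0.37 on the 4 Irf8KO arrays, so the wild-type Flt3- group stood apart as it did for Ldha, at the low end. By interaction, Pcx, pyruvate carboxylase (0.65, SE 0.13, adjusted p = 0.015), and Tigar, a sugar bisphosphatase (0.51, SE 0.071), were highest among genes measured in all 4 groups. Prkaa2, a catalytic subunit of the AMP-activated kinase (-1.41, SE 0.17, adjusted p = 0.00408), and Txnip (-1.19, SE 0.089) were lowest. Prkaa2 was dim, as Eno2 was, with levels from -4.64 to -3.61 over the 8 arrays, though well above background on all of them. A separate list of 17 hypoxia response genes outside glycolysis had 14 tested. In Flt3+ against Flt3- GPs 5 were higher and 6 lower in wild type and again in Irf8KO (35.7% and 42.9%), beside 22.6% and 39.2% of all genes in wild type and 22.1% and 23.6% in Irf8KO. In Irf8KO against wild type 4 were higher and 3 lower in Flt3+ GPs (28.6% and 21.4%, against 16.5% and 12.5%), and 6 were higher and 2 lower in Flt3- GPs (42.9% and 14.3%, against 16.5% and 27.2%). The interaction was above 0 for 3 and below for 1 (21.4% and 7.14%, against 21.4% and 9.45%). With 14 genes each share rests on few genes.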

How the data were processed

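Single-colour Agilent arrays were scanned and read with Agilent Feature Extraction 10.7.3.1 (protocol GE1_107_Sep09), per the file headers. RNA was extracted with an RNeasy Micro kit and labelled with a low-input Cy3 kit, per the labels' protocols. The intensity of each spot was deposited as the processed signal, background-subtracted by that program per the file headers, with its other columns (the flags for signals well above background, saturated or outlying, the median spot signal and the median background). The deposited series table holds linear intensity, judged from its values: its ratio to the scanner signal was constant within an array, at 0.672 to 1.33, which put the 75th percentile of every column at 426.2, with column medians of 26.9, 27.1, 27.5, 27.6, 28, 28.7, 28.7 and 29.9. No centring of genes was found, and a direction does not arise in 1 channel.

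Control and outlier spots were left out (93 to 178 outliers per array), spots of a probe were averaged, and log2 signals were taken relative to each array's 75th percentile (321 to 634). A probe was kept if at least 1 group had it well above background on each of its 2 arrays, and a gene took its brightest kept probe. Accessions of 26762 of 55681 probes matched the RefSeq table of GRCm38.p6 (20284 symbols), and 28919 probes stayed unnamed. limma 3.58.1 in R 4.3.3 fitted 4 group means to 8 arrays (4 residual degrees of freedom), with Benjamini-Hochberg adjustment within each of 5 comparisons, after the steps were tested on simulated data. Replicate arrays correlated at 0.9958 to 0.9975 across the genes tested, and the number of arrays limits the precision.

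The labels give replicates the number of their experiment. Differences between experiments 1 and 2 correlated between groups at -0.03 to 0.12 across genes, and the block is used beside results whose call it changed. Alternatives were normexp (offset 50, on the median signal, since these files hold no mean), quantile, median and spot-based scaling (the last chosen after seeing the data), the series table, other filters, probe means, separate fits, a trended robust prior, the block, each array left out and an added 1.5-fold limit.

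All members were described by place in the pathway. Of the other pathway genes, the 2 highest and 2 lowest called differences per comparison were named. Where a group was not well above background, a bound was given and the next gene measured in all groups of the comparison was named as well, a choice made after the values were seen. The members and all lists were chosen with earlier results of these data known. Promoter sequences are RefSeq's.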

Additional observations from a re-analysis of the deposited data

Results flagged for a closer look

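For 18 of the 34 genes the difference between Irf8KO and wild type was itself different in Flt3+ and Flt3- GPs, by limma's interaction term with an adjusted p under 0.05. Of all genes 30.9% were called by the same test. Of the 18 members 13 were above 0 and 5 below, which became 4 and 8 under quantile normalization. Shares of all genes were 21.4% above and 9.45% below, and 14% and 13.2% under quantile normalization. Values are the log2 difference in Flt3+ minus that in Flt3- GPs. In glycolysis they were 0.62 for Hk3, 0.20 for Hk1, 0.21 for Gpi1, -0.81 for Aldoc, 0.36 for Tpi1, 0.41 for Pgk1, 0.42 for Pgam1, 0.20 for Eno1 and -0.72 for Eno2. At the pyruvate branch they were 0.58 for Ldha, -0.42 for Ldhb and 0.34 for Pdhb. Among the regulators of the phosphofructokinase step they were -0.46 for Pfkfb4 and -0.66 for Fbp1. In the pentose phosphate pathway they were 0.40 for G6pdx, 0.59 for Pgls, 0.40 for Pgd and 0.33 for Rpe.

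With any 1 array left out, 10 of the 18 kept their call, and Aldoc, Fbp1, Hk3 and Pgls did so under every alternative that was run, the 1.5-fold limit included. Under quantile normalization 9 of the 18 kept it.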

How the results depend on the processing

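With each array left out in turn, the members called numbered 30 to 32 and 24 to 27 between populations (wild type, Irf8KO), 6 to 14 and 9 to 14 between genotypes (Flt3+, Flt3-) and 11 to 13 by interaction. Calls over all genes changed in number too. The lone array of a group was then assumed to vary like the others. The genotype count in Flt3+ GPs was 9 without the filter on dim probes, beside 2678 of 20279 genes. It was 9 with only its own groups fitted, beside 2664 of 14106 genes. Requiring at least 1.5-fold as well left 21 and 15 of the 34 members between populations, 3 and 3 between genotypes and 5 by interaction. Of all 14106 genes it left 3459 and 2645, 1241 and 1408, and 1332 in the same order. Other member counts stayed within 1.5 times of those reported. Among differences called under the main or the alternative processing, single genes turned in direction in 3 cases. Sign changes of differences called under neither were not counted. Eno2 turned from -0.40 to 0.01 between genotypes in Flt3+ GPs after normexp correction (the cause was not tested). The interactions of Hk1 (0.20 to -0.05) and Pkm (0.03 to -0.23) turned under quantile normalization (the cause was not tested). With the experiment as a replicate block the calls numbered 32 and 27, 16 and 15, and 18. The Rpe interaction (0.33, adjusted p = 0.0562) lost its call, Gys1 by interaction (0.21), Pgls in Flt3- GPs (-0.19) and Tpi1 between Irf8KO populations (-0.21) gained one, and no other call changed. The series table changed no call. With 2 arrays a group, small differences are not resolved.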
